A study of Mus musculus with 14 samples.

Results

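Long-chain fatty acids reach heart muscle and fat through a short chain of proteins, and 10 mouse genes of that chain were followed here among the 33459 genes of the count table: Lpl, Gpihbp1, Angptl4, Cd36, Slc27a1, Slc27a4, Acsl1, Fabp3, Fabp4 and Fabp5. They were chosen by name, and each matched 1 Ensembl gene. The mice were C57BL/6, 21 weeks old, and had all eaten a high-fat diet for 8 weeks. Both genotypes had that diet, and no group on another diet was analysed here. One genotype was wild type (WT) and the other lacked Fhl2 (KO), whose product is an adaptor built of LIM domains and is abundant in heart muscle. The labels do not say how the allele was made or whether equal numbers mark littermates. They also do not say whether heart and gWAT samples of the same genotype and number came from 1 mouse. The mRNA of heart was sequenced from 4 WT and 4 KO samples, numbered 1 to 4, and that of gonadal white adipose tissue (gWAT) from 3 WT and 3 KO samples, numbered 1, 3 and 4.

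Lipoprotein lipase, the product of Lpl, splits triglycerides of circulating lipoproteins at the capillary wall, where GPIHBP1 holds it and ANGPTL4 inactivates it. The freed fatty acids cross the cell membrane with the help of CD36 and of the fatty acid transport proteins encoded by the Slc27a genes, and are activated to acyl-CoA by synthetases such as ACSL1. Inside the cell they are carried by fatty acid-binding proteins: FABP3 is the form known from heart and skeletal muscle, FABP4 from fat cells, capillary endothelium and macrophages, and FABP5 from skin, macrophages and endothelium. These lists of cells are not complete, and the Fabp5 transcripts counted here are not assigned to a cell type.

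The 3 binding proteins come from related genes, and the counts of Fabp3 bear on a copy of it elsewhere in the genome. The coding sequence of Fabp3 (chr4:130308595-130315463, plus strand, GRCm38) was 66.5% identical to that of Fabp4 (chr3:10204088-10208576, minus strand) and 58.2% identical to that of Fabp5 (chr3:10012548-10016607, plus strand), whereas Fabp3-ps1 (chr10:86731987-86732388), a processed pseudogene, was 99.3% identical to it. The same stretch of 90 bases, coding bases 245 to 334 of Fabp3 counted from the start codon, is shown for all 4 from the GENCODE M21 models, because it shows which copies reads can tell apart. Capitals mark bases that differ from Fabp3.
Fabp3: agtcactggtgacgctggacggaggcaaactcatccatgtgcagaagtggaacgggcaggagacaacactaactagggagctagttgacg
Fabp3-ps1: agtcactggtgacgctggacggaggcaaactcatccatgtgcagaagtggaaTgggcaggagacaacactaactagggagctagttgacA
Fabp4: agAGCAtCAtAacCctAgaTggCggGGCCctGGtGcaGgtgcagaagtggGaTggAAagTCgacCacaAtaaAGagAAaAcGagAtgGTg
Fabp5: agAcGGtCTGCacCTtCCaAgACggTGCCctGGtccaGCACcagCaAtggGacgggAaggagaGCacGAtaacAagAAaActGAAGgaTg
Fabp3-ps1 differed from Fabp3 at 2 of these 90 bases and at 3 of all 402, with a longest identical run of 256 bases. Fabp4 differed at 36 and Fabp5 at 41 of the bases shown, and their longest runs shared with Fabp3 were 14 and 10 bases. In the heart libraries, 8.60% to 9.50% of the reads on Fabp3 and Fabp3-ps1 together were counted on the pseudogene. That share covers only reads that were counted on 1 of the 2 copies, so it does not bound the uncertainty of the Fabp3 level. How reads that fit both copies were counted or divided was not tested. Fabp3 also overlaps Zcchc17 on the opposite strand, which had 5201 reads in all 14 libraries against 129267 for Fabp3, and whether counting used strand is not given in the sources used here.

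The labels held in all libraries. Fhl2 was at 1031 to 1396 CPM in WT hearts (counts scaled to a common library size, within each tissue unless stated) and at 28.6 to 37.8 in KO hearts. In gWAT it was at 4.35 to 6.26 CPM in WT and at 0.257 to 0.462 in KO. Summed over 7 cardiomyocyte markers, heart libraries had 35151 to 41552 CPM and gWAT libraries 21.4 to 29.0, and summed over 8 white adipocyte markers gWAT libraries had 11938 to 19897 and heart libraries 292 to 441. In bulk tissue, fewer cells of a type and less RNA per cell cannot be told apart.

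Heart and gWAT differed in which binding protein transcripts they held. In WT mice, Fabp3 was higher in heart and Fabp4 and Fabp5 were higher in gWAT, and the lipase, entry and activation genes were higher in gWAT except for Gpihbp1. All 10 genes passed the test between WT heart and WT gWAT (adjusted p under 0.05), 2 of them higher and 8 lower in heart, where 69.4% of all 15287 genes tested passed, 33.3% higher and 36.1% lower in heart. The median log2 difference of the 10 genes was -1.31, and that of all genes was -0.028. This split by tissue was read from edgeR's quasi-likelihood test with Benjamini-Hochberg adjustment over all genes, as were the other adjusted p-values unless another tool is named.

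For levels set across the tissues, CPM were scaled over all 14 libraries together, so they differ from those scaled within a tissue. Of the binding proteins, Fabp3 had 1367, 1464, 1661 and 1745 CPM on that scale in the WT hearts numbered 1 to 4, and 0.401, 1.15 and 1.07 CPM in the WT gWAT libraries numbered 1, 3 and 4. The lowest heart lay far above the highest gWAT library, and the log2 difference was 10.77 ± 0.33 (SE, adjusted p = 1.45e-08). The gWAT side of that difference rests on 52 reads in 3 libraries. Fabp4 went the other way, with 863, 955, 1248 and 1100 CPM in heart and 12132, 8931 and 10252 CPM in gWAT, a log2 difference of -3.32 ± 0.20 (adjusted p = 6.90e-07). Fabp5 had 23.0, 15.99, 26.4 and 25.4 CPM in heart and 155.8, 155.7 and 156.1 CPM in gWAT, and its log2 difference was -2.78 ± 0.15 (adjusted p = 4.65e-07). None of the 3 genes overlapped between the tissues.

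Among the genes at the capillary wall, Angptl4 showed the widest difference, with 5.95 to 12.6 CPM in WT heart and 572 to 643 in WT gWAT on the scale of all 14 libraries (log2 difference -5.82 ± 0.24, adjusted p = 7.64e-08). Lpl had 3279 to 3961 CPM in heart and 8047 to 13582 in gWAT (log2 difference -1.49 ± 0.21, adjusted p = 0.000191). Gpihbp1, the capillary anchor of the lipase, was the only one of the 3 that was higher in heart (log2 difference 0.80 ± 0.13, adjusted p = 0.000451). Its call depended on the scaling: on library totals without scaling factors, which moved the median of all genes to -0.61, the value was 0.22 with an adjusted p of 0.088, and between KO heart and KO gWAT it was 0.51 with an adjusted p of 0.0923. All 8 endothelial markers tested were also higher in heart, with 1080 to 1221 summed CPM in WT heart and 374 to 470 in WT gWAT, and none of them was at 0. The part of endothelial content in the Gpihbp1 difference was not tested.

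The entry and activation genes were all higher in gWAT. Slc27a1, which encodes the transport protein FATP1, had a log2 difference of -1.71 ± 0.12 (adjusted p = 1.65e-06), and Slc27a4, which encodes FATP4, of -0.89 ± 0.12 (adjusted p = 0.000156). For Acsl1, the main long-chain acyl-CoA synthetase of heart and fat, the log2 difference was -1.14 ± 0.21 (adjusted p = 0.000844). In the main fit Cd36 differed least of the 10 genes, with 2276 to 2887 CPM in WT heart and 3556 to 4180 in WT gWAT on the scale of all 14 libraries (log2 difference -0.59 ± 0.15, adjusted p = 0.00678). That rank may not hold under other scalings, as the values of Gpihbp1 above show. Cd36 no longer passed when label numbers entered as a block (-0.55, adjusted p = 0.0833).

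Per length, the 10 genes could be put in order within a tissue. On RPKM, which are CPM scaled over all 14 libraries and divided by the kilobases of all annotated exons, WT heart ran from Fabp3 at 1895 ± 212 (SD, n = 4) over Cd36 at 721 ± 88.9, Lpl at 348 ± 31.5, Fabp4 at 232 ± 37.6, Acsl1 at 95.7 ± 11.9, Gpihbp1 at 36.1 ± 5.31 and Slc27a1 at 15.2 ± 1.96 to Fabp5 at 6.36 ± 1.31, Slc27a4 at 4.24 ± 0.568 and Angptl4 at 2.98 ± 0.873. Fabp5 and Slc27a4 overlapped between libraries, and the other neighbours did not. WT gWAT began with Fabp4 at 2325 ± 358 RPKM (SD, n = 3), then Cd36 at 1089 ± 89.2, Lpl at 977 ± 281, Acsl1 at 212 ± 66.1, Angptl4 at 169 ± 10.9, Slc27a1 at 49.9 ± 3.22, Fabp5 at 43.7 ± 0.0485, Gpihbp1 at 20.7 ± 1.98 and Slc27a4 at 7.87 ± 0.651, and ended with Fabp3 at 1.06 ± 0.499. There, Cd36 overlapped Lpl and Acsl1 overlapped Angptl4. The order depends on which length is used. The annotated exons of Lpl, Acsl1, Fabp4, Fabp5, Gpihbp1 and Slc27a1 include long alternative or retained parts. Per principal protein-coding transcript, Fabp4 was at 1163 ± 188 in WT heart, second after Fabp3, and at 11650 ± 1795 in WT gWAT. Lpl at 2489 ± 715 stood above Cd36 at 1150.3 ± 94.2 in WT gWAT. By that length, Gpihbp1 was at 111.7 ± 16.4 in WT heart and at 64.1 ± 6.13 in WT gWAT. Fabp5 at 157.9 ± 0.175 stood above Slc27a1 at 104.1 ± 6.73 in WT gWAT.

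**Figure D1:**
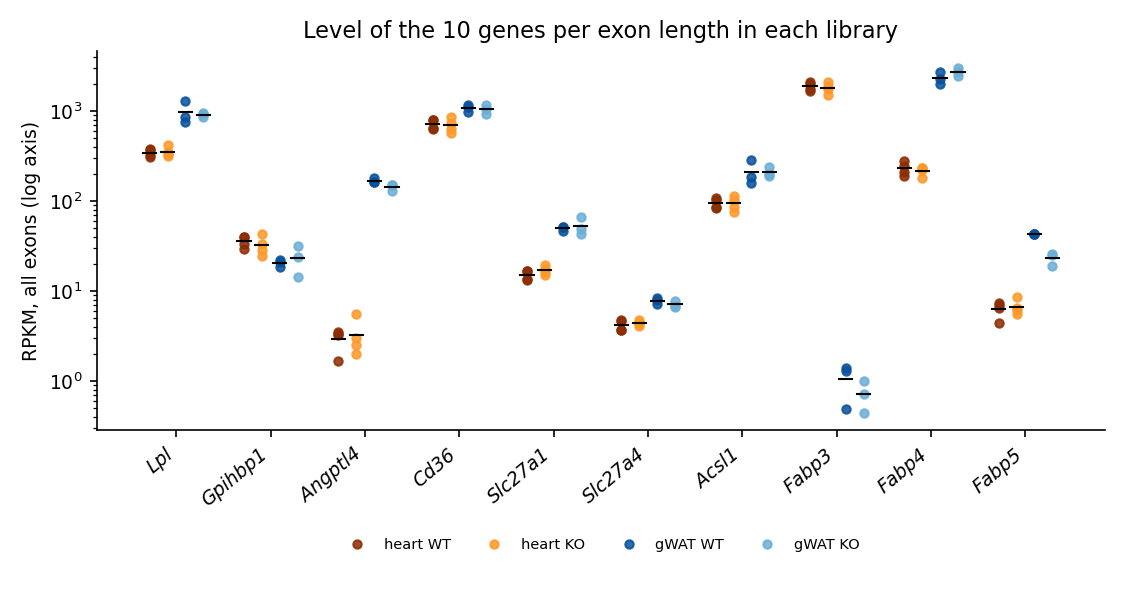
Level of each gene in every library, as RPKM over all annotated exons on a log axis (points: libraries; bars: group means; 4 libraries a group in heart, 3 in gWAT). Fabp3 has the highest mean in heart and the lowest in gWAT, and Fabp4 has the highest in gWAT. Angptl4 is low in heart, and the 3 KO points of Fabp5 in gWAT lie below the 3 WT points.

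In each tissue 1 of the 3 binding proteins made up most of their summed level. By RPKM over all exons, Fabp3 made up 88.9% ± 0.836 (SD, n = 4) of their summed level in WT heart and 89.0% ± 1.005 (n = 4) in KO heart, with Fabp4 at 10.9% ± 0.828 and 10.7% ± 0.932. Per principal transcript, a length chosen after the data were seen, the WT heart share was 61.6% ± 1.96 for Fabp3 and 37.6% ± 1.96 for Fabp4. In gWAT, Fabp4 made up 98.1% ± 0.304 (n = 3) in WT and 99.1% ± 0.0538 (n = 3) in KO, and Fabp5 1.87% ± 0.278 and 0.841% ± 0.0660. Fabp4 was the third and Lpl the fourth most counted gene of the WT gWAT libraries, Cd36 was at rank 12 and Acsl1 at rank 24. The 10 genes together held 3.1% to 3.94% of all gWAT reads and 0.778% to 0.959% of all heart reads.

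In gWAT, loss of Fhl2 went with a lower level of 1 of the 10 genes, Fabp5, and with no called change of the other 9. Of all 15200 genes tested, 5.49% passed in this comparison. Those lower in KO were 3.48% of all genes tested and those higher 2.01%, so 1 of 10 is near the background. The median log2 fold change of the 10 genes was -0.065, and that of all genes was 0.

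Fabp5 had 188, 195 and 194 CPM in the WT libraries numbered 1, 3 and 4, and 112, 84.9 and 111 CPM in the KO libraries of the same numbers. The WT values lay close together. The groups did not overlap, as was so for 27.8% of all genes tested in gWAT. The log2 fold change was -0.90 ± 0.13 (SE, 95% interval -1.20 to -0.61, adjusted p = 0.0216), lower in 3 of 3 KO libraries than in any WT library. For each read of Fabp5, 57.3 to 77.9 reads of Fabp4 were counted in WT gWAT and 137 to 161 in KO gWAT. The call depended on single libraries: it held without WT number 1 or WT number 3, and was lost without WT number 4 (adjusted p = 0.121), KO number 1 (0.0853), KO number 3 (0.0824) or KO number 4 (0.0929), while the fold change stayed between -0.97 and -0.78.

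Markers of several cell types moved with the genotype in the same libraries. Of 8 markers of lipid-associated macrophages, the cells that gather around fat cells in obesity, 7 were lower in KO gWAT and 0 were at 0 in any group, and their summed level was 1391, 6439 and 4563 CPM in WT numbers 1, 3 and 4 and 713, 686 and 784 CPM in KO. Among them, Trem2, a lipid receptor, fell by 2.66 ± 0.42 on the log2 scale (adjusted p = 0.0253) and Gpnmb, a membrane glycoprotein, by 3.31 ± 0.60 (adjusted p = 0.0285). Of 8 general macrophage markers 3 were lower, none higher, with summed levels of 1403, 2912 and 2288 CPM in WT and 1188 to 1314 in KO. In the WT libraries, Fabp5 at 188, 195 and 194 CPM stood beside lipid-associated macrophage sums of 1391, 6439 and 4563. White adipocyte markers summed to 19635, 11938 and 15075 CPM in WT and 18811 to 19897 in KO, with 2 of 8 higher and none lower. Mesothelial markers, those of the lining of the fat pad, summed to 206, 98.5 and 173 CPM in WT and 352, 430 and 254 in KO, with 3 of 5 higher, none lower and none at 0. The part of cell content in the Fabp5 difference was not tested.

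**Figure D2:**
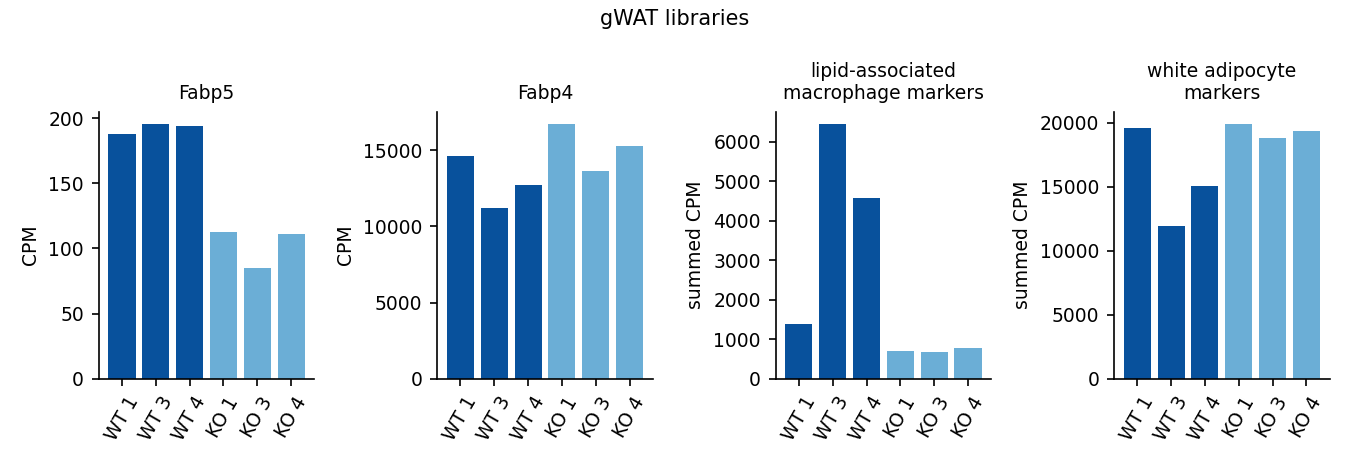
CPM of Fabp5 and Fabp4 and summed CPM of 8 lipid-associated macrophage and 8 white adipocyte markers in the 6 gWAT libraries (one bar per library; dark, WT; light, KO). Fabp5 is at 188 to 195 CPM in the 3 WT libraries and at 84.9 to 112 in the 3 KO libraries, and the macrophage sums are 1391 to 6439 in WT and 686 to 784 in KO.

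The other binding proteins gave no call in gWAT. Fabp4 had 14610, 11206 and 12750 CPM in WT and 16715, 13666 and 15253 CPM in KO, groups that overlapped (log2 fold change 0.24 ± 0.22, 95% interval -0.26 to 0.74, adjusted p = 0.551). Fabp3, at 0.451 to 1.44 CPM with 52 reads in WT and 34 in KO, is too thinly covered for a narrow estimate (-0.57 ± 0.48, 95% interval -1.68 to 0.54, adjusted p = 0.528). Between Fabp5 and Fabp4 on chromosome 3 lie 4 annotated genes, Fabp9, Gm9833, Gm38335 and Gm37308, with 8, 308, 15 and 1 reads in all 14 libraries. Fabp4 and Fabp5 are thus the 2 most counted genes of that stretch, and 1 of them was called.

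At the capillary wall, Angptl4 had 774, 729 and 712 CPM in WT gWAT and 666, 566 and 664 CPM in KO gWAT. The groups did not overlap, which held for 2 of the 10 genes (Fabp5 and Angptl4) and for 27.8% of all genes. Its log2 fold change was -0.22 ± 0.12 (95% interval -0.51 to 0.06, adjusted p = 0.325). Lpl had 16356, 10098 and 11310 CPM in WT and 12162, 11065 and 12282 CPM in KO, so that WT number 1 stood above all others and the KO libraries lay within the WT range. The log2 fold change of Lpl was -0.09 ± 0.24 (95% interval -0.65 to 0.47, adjusted p = 0.865), and it changed sign when single libraries were left out. Gpihbp1 spread widest in KO, with 100.3, 45.1 and 75.1 CPM against 68.8, 67.9 and 58.8 in WT (0.17 ± 0.25, 95% interval -0.40 to 0.74, adjusted p = 0.722).

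Among the entry and activation genes, Cd36 had 5034, 4462 and 4966 CPM in WT gWAT and 4125, 4671 and 5259 in KO gWAT (log2 fold change -0.04 ± 0.18, 95% interval -0.44 to 0.36, adjusted p = 0.916). Acsl1 had 3616, 2115 and 2452 CPM in WT and 3124, 2446 and 2597 in KO, with number 1 highest in both genotypes (-0.0029 ± 0.23, 95% interval -0.52 to 0.52, adjusted p = 0.995). For Slc27a1 the log2 fold change was 0.09 ± 0.17 (adjusted p = 0.779) and for Slc27a4 it was -0.14 ± 0.11 (adjusted p = 0.489), and both overlapped between genotypes. Intervals of this width do not show that the levels of these genes were equal in the 2 genotypes.

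**Figure D3:**
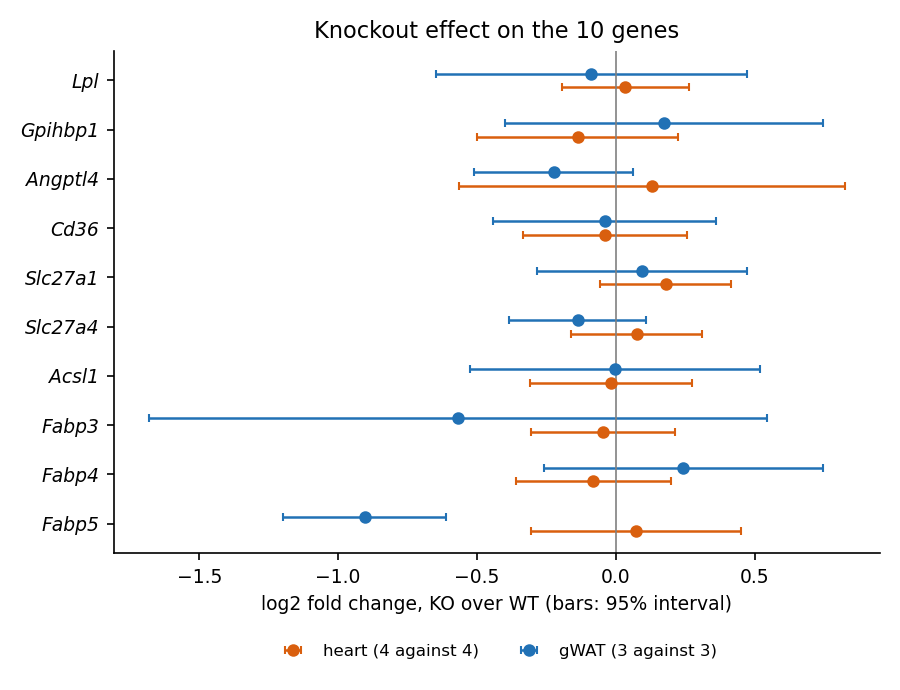
Log2 fold change of KO over WT for the 10 genes, in heart (4 against 4 libraries) and gWAT (3 against 3), with 95% intervals from edgeR's quasi-likelihood fit. The interval of Fabp5 in gWAT, -1.20 to -0.61, does not reach 0, and the other 19 intervals do.

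In heart, none of the 10 genes was called between KO and WT. Of all 14159 genes tested, 0.00706% passed, which is 1 gene, Fhl2 itself, and 453 genes, 3.2%, had an unadjusted p under 0.05. Among the 10 genes, 0 had an unadjusted p under 0.05 and 0 were called by DESeq2 or limma-voom. Their log2 fold changes ran from -0.14 ± 0.16 for Gpihbp1 to 0.18 ± 0.11 for Slc27a1, each with an adjusted p of 0.9997, with a median of 0.008 against -0.003 for all genes. The groups overlapped for all 10, where 2.41% of all genes had groups that did not.

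Fabp3, the main binding protein transcript of heart, had 1169, 1253, 1421 and 1493 CPM in WT numbers 1 to 4 and 1252, 1068, 1346 and 1499 CPM in KO (log2 fold change -0.05 ± 0.12, 95% interval -0.31 to 0.21). Cd36 had 1947, 2012, 2470 and 2427 CPM in WT and 1776, 1932, 2289 and 2619 in KO (-0.04 ± 0.13, 95% interval -0.33 to 0.25). Acsl1 had 756, 780, 967 and 932 CPM in WT and 688, 766, 925 and 1015 in KO (-0.02 ± 0.13, 95% interval -0.31 to 0.28). All 3 genes were lower in numbers 1 and 2 than in numbers 3 and 4, in both genotypes.

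For these genes that division by number was wider than the difference by genotype. In numbers 3 and 4 against 1 and 2, the sets did not overlap for 4 of the 10 genes, Cd36, Slc27a1, Acsl1 and Fabp3, all higher in numbers 3 and 4, where 12.9% of all genes did not overlap and 5.62% were higher in numbers 3 and 4. The log2 difference between the sets was 0.35 for Cd36, 0.28 for Slc27a1, 0.36 for Acsl1 and 0.28 for Fabp3. The 5 atrial markers, Nppa among them, summed to 3156 to 4442 CPM in numbers 1 and 2 and to 90.03 to 888 CPM in numbers 3 and 4, and none of the 5 was at 0. The part of atrial tissue in these differences was not tested, and the labels do not say what the numbers share. Within numbers 1 and 2, KO minus WT was -0.10 for Cd36, -0.08 for Acsl1 and -0.07 for Fabp3 on the log2 scale, and within numbers 3 and 4 it was 0.0003, 0.03 and -0.04. For Slc27a1 it was 0.23 within numbers 1 and 2 and 0.14 within numbers 3 and 4.

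**Figure D4:**
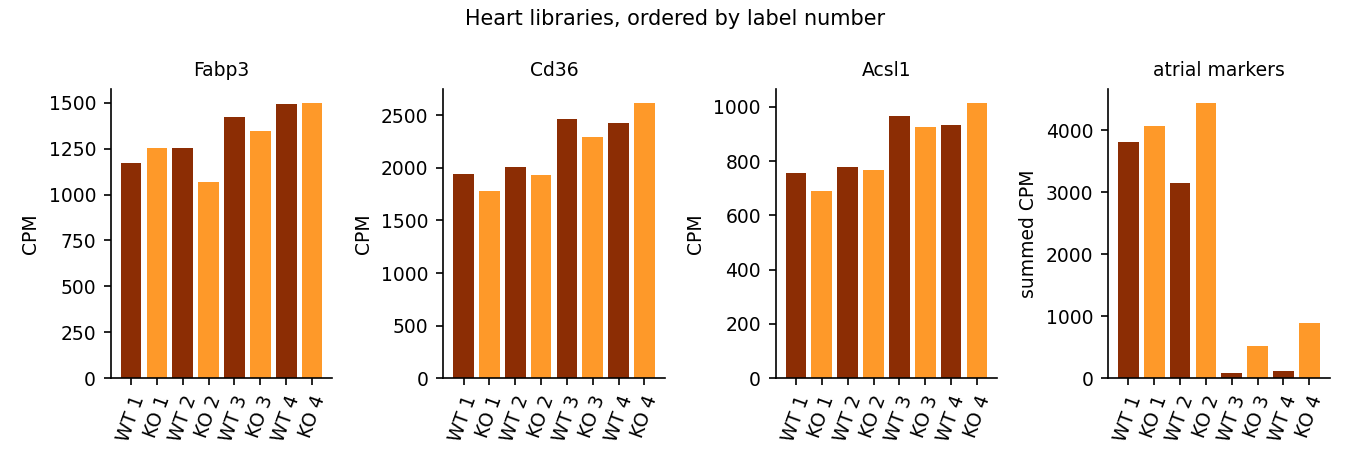
CPM of Fabp3, Cd36 and Acsl1 and summed CPM of 5 atrial markers in the 8 heart libraries, ordered by label number (one bar per library; dark, WT; light, KO). Numbers 3 and 4 have the higher bars for the 3 genes and the lower bars for the atrial sum (90.03 to 888 CPM).

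The promoters of Fabp3, Cd36 and Acsl1 are shown because their levels moved together over the hearts. Each runs from 250 bases before to 50 after an annotated start, 5′ to 3′ on the gene's strand (RefSeq, GRCm38.p6). Of the 10 genes, 5 have a promoter in the reference table: Cd36, Slc27a1, Slc27a4, Acsl1 and Fabp3. Slc27a1, which was also higher in numbers 3 and 4, has 3 promoters there, which are not printed. Both strands were searched for AGGTCA (the nuclear receptor core motif, which makes up part of the element bound by the PPAR receptors), the DR1 element (2 of these cores with 1 base between), the TATA box with the letters TATAAA, the GC box with the letters GGGCGG, and the CCAAT box, and capitals mark the matches.
Fabp3 (chr4:130308488-130308787, plus strand): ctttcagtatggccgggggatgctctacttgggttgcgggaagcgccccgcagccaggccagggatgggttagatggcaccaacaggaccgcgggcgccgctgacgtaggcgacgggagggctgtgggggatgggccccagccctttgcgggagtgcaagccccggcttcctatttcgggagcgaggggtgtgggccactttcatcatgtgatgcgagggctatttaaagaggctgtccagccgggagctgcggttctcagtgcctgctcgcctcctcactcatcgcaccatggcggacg
Cd36 (chr5:17835847-17836146, minus strand): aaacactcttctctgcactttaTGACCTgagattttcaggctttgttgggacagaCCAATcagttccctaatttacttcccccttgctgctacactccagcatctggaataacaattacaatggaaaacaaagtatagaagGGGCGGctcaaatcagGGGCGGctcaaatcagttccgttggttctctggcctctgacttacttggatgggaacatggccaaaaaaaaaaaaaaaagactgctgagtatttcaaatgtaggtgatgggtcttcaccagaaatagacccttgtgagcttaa
Acsl1 (chr8:46470787-46471086, plus strand): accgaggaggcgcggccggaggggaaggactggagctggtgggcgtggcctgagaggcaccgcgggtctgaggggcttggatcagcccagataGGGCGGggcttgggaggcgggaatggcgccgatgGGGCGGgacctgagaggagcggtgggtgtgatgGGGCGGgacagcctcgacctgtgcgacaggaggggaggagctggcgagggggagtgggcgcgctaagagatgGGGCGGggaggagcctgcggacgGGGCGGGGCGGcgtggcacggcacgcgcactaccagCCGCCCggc
The Cd36 window held 1 AGGTCA, 2 GGGCGG and 1 CCAAT. It is the only one listed for Cd36, and its start lies inside the annotated gene (chr5:17781690-17888801), not at the gene's 5′ end. The table holds a second Acsl1 promoter at another start (chr8:46490716-46491015), with 2 CCAAT and no GGGCGG, and the first is printed because it lies at the start of the annotated gene. That first Acsl1 window held 7 GGGCGG, 2 of them overlapping by 1 base, and the Fabp3 window held none of the 5 motifs. Among all 32851 promoters of that table, 16.3% held AGGTCA, 0.0396% the DR1 element, 13.6% TATAAA, 35.7% GGGCGG and 37.4% CCAAT. No motif was shared by all 3 windows, and a match or its absence in 300 bases says nothing about binding.

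Slc27a1 had 67.3, 67.8, 84.6 and 84.2 CPM in WT numbers 1 to 4 and 82.6, 75.6, 88.5 and 97.5 in KO. It was the 1 gene of the 10 that differed in the same direction, higher in KO, in 4 of 4 same-number pairs. Of all genes, 12.8% did so in either direction and 6.34% were higher in KO, so 1 of 10 is near the background. The labels do not say that equal numbers are pairs. Its log2 fold change was 0.18 ± 0.11 (95% interval -0.06 to 0.42), and with the number as a block 0.18 ± 0.07 (adjusted p = 0.807). For the other genes, Lpl was at 2804 to 3388 CPM in WT and at 2877 to 3725 in KO (0.03 ± 0.10), and Fabp4 at 738 to 1068 and 697 to 909 (-0.08 ± 0.13). Fabp5 was at 13.7 to 22.6 CPM in WT and 16.8 to 26.02 in KO (0.07 ± 0.17, 95% interval -0.31 to 0.45). Slc27a4 was at 14.2 to 18.2 and 15.6 to 17.8 CPM (0.07 ± 0.11). Angptl4 varied most, with 10.2, 10.02, 10.8 and 5.09 CPM in WT numbers 1 to 4 and 7.58, 6.07, 9.04 and 16.9 in KO (0.13 ± 0.31, 95% interval -0.56 to 0.82), so that the number 4 libraries held both the lowest and the highest value.

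Whether the Fabp5 effect differed between tissues was tested directly. The difference of the log2 fold changes, gWAT minus heart, was -0.98 ± 0.23 (SE, 95% interval -1.47 to -0.48), with an adjusted p of 0.0532, which missed the threshold. None of the 10 genes passed this test, where 1.15% of 16014 genes did. Fabp5 passed in 5 of 21 alternatives, with adjusted p-values from 0.0059 to 0.135, among them DESeq2 (0.00665) and leaving out WT gWAT number 1 (0.0256).

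Beyond the 10 genes, 63 others of fatty acid handling were listed in 5 groups, of which 51 were tested in gWAT and 45 in heart. In gWAT 2 were higher and 1 lower in KO, 3 of 51, close to the 5.49% called among all genes, and their median log2 fold change was -0.04. At an unadjusted p under 0.05 there were 8 of the 51, where 23.1% of all genes were. In heart 0 were called, with 1 of 45 at an unadjusted p under 0.05, where 3.2% of all genes were. The other fatty acid-binding and carrier genes had 6 tested in gWAT, and 1 of them, Fabp7, the form known from brain, was lower. It had 1.59 to 4.13 CPM in WT and 0.385 to 0.644 in KO, with 146 and 22 reads (log2 fold change -2.67 ± 0.45, adjusted p = 0.0258).

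Among the genes around lipoprotein lipase, 17 were tested in gWAT and 2 were higher in KO. Pcsk6, a proprotein convertase, rose from 54.4 to 97.5 CPM in WT to 138 to 181 in KO (log2 fold change 1.14 ± 0.21, adjusted p = 0.0296), and its effect in gWAT differed from that in heart (difference 1.41 ± 0.25, adjusted p = 0.0218). Apoe, the lipoprotein component that binds lipoprotein receptors, rose from 1726 to 1812 CPM to 2482 to 2941 (0.61 ± 0.14, adjusted p = 0.04995). The convertase Pcsk5 missed the threshold (0.42 ± 0.11, adjusted p = 0.0600).

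In the other 3 groups 0 genes were called in gWAT: 0 of 6 transport proteins and synthetases, 0 of 8 membrane partners and 0 of 14 regulators. The smallest p-values in gWAT belonged to Acsl3 (-0.35 ± 0.17, adjusted p = 0.268), to Scarb1, a scavenger receptor related to Cd36 (-0.54 ± 0.21, adjusted p = 0.175), and to Vegfb, a growth factor (0.59 ± 0.14, adjusted p = 0.0549). Between WT heart and WT gWAT, 1 of 5 carriers was higher and 3 lower in heart, as were 1 and 5 of 6 transport proteins and synthetases, 3 and 12 of 16 genes around the lipase, 2 and 5 of 8 membrane partners and 7 and 5 of 14 regulators. Among all genes 33.3% were higher and 36.1% lower in heart. Whether any of these groups departs from those shares was not tested. Ppargc1a and Ppara, regulators of fatty acid oxidation, were higher in heart by 5.94 ± 0.17 and 3.61 ± 0.20 on the log2 scale, and Pparg and Cebpa, regulators of fat cells, were lower (-2.92 ± 0.16 and -4.84 ± 0.22), 4 genes named after their values were seen.

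**Figure D5:**
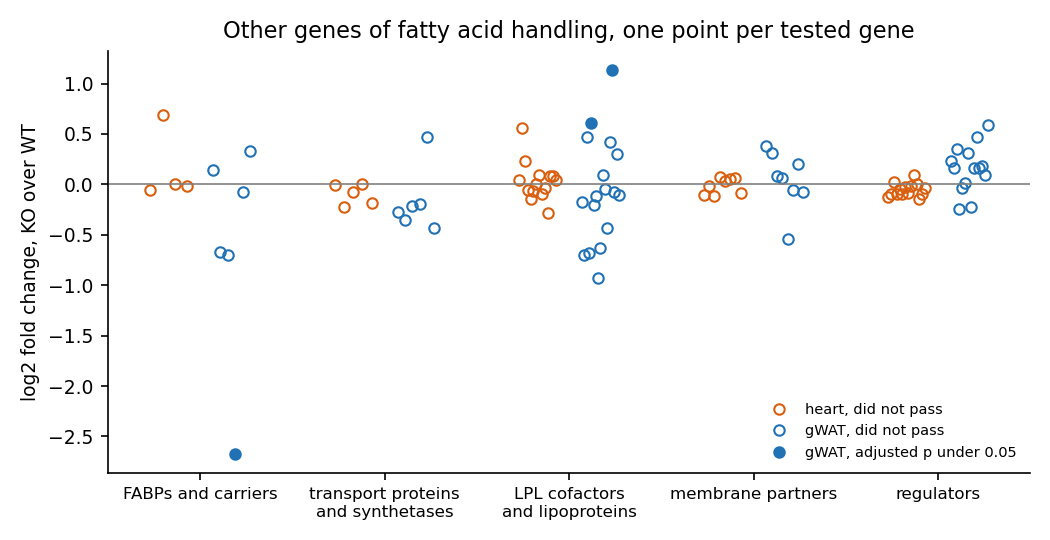
Log2 fold change of KO over WT for the tested genes of the 5 groups (one point per gene; filled, adjusted p under 0.05; open, not passed) in heart and gWAT. The 3 filled points in gWAT are Fabp7 at -2.67, Pcsk6 at 1.14 and Apoe at 0.61.

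Within a tissue, some of the 10 genes varied together over libraries, and these values describe libraries that share depth, dissection and, in part, genotype. In heart Cd36 and Acsl1 had a Pearson r of 0.99 over 8 libraries. In gWAT, over 6 libraries, r was 0.93 for Lpl and Acsl1, 0.93 for Gpihbp1 and Slc27a1 and 0.91 for Angptl4 and Fabp5. Over all 14 libraries, with each tissue's mean subtracted and 9539 genes compared, Cs, which encodes citrate synthase, was among the 2 genes most like Acsl1 (r = 0.94), and Cd99l2 among the 2 most like Lpl (r = 0.92). Gpihbp1 was most like Ablim3 (0.95), Cd36 like Fkbp3 (0.94), and Fabp5 like Clta, the clathrin light chain (0.93), and Nsdhl, an enzyme of cholesterol synthesis (0.93). Fabp4 was most like Ybx3 (0.90), Fabp3 like Cyfip2 (0.88), Slc27a1 like Etfb (0.86), Angptl4 like Atxn3 (0.84) and Slc27a4 like Strada (0.81). Each of these genes was picked for the highest r among 9539, so the size of r alone does not set it apart. For Fabp3 and Cyfip2, r was 0.92 in gWAT, where Fabp3 had 7 to 23 reads per library, and 0.72 in heart. For Angptl4 and Atxn3 it was 0.51 in gWAT and 0.87 in heart.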

How the data were processed

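The mRNA of 14 mouse libraries, 8 of heart and 6 of gWAT, was made with the Kapa mRNA Hyperprep kit, per the labels' protocols. The values deposited by the authors are whole-number read counts for each Ensembl gene without normalization. Totals were 10835092 to 13272412 counts in heart and 15105019 to 16040188 in gWAT. HISAT2 2.1.0, HTSeq 0.11.0, Trimmomatic 0.32 and the build mm10 are named in the submitters' processing notes. The annotation release is not given in the sources used here. Of 33459 genes, 53 carried no symbol and held 0.0132% of reads. They were tested but not named.

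Each tissue was fitted with edgeR 4.0.16 in R 4.3.3 (filterByExpr, TMM, quasi-likelihood F test, Benjamini-Hochberg over all tested genes, threshold 0.05), the interaction on all 14 libraries and heart against gWAT on WT libraries. Standard errors are the log2 fold change over the square root of F. CPM use TMM-scaled totals of each tissue, or of all 14 libraries where levels are set across tissues, and exon lengths, coordinates and coding sequences come from GENCODE M21, aligned with Biopython 1.88. The fits were checked on simulated data. Alternatives were RLE or no scaling, other filters, DESeq2 1.42.0, limma-voom (limma 3.58.1), one fit of all libraries, a block for the label number, atrial level or number set as a covariate, and leaving out each library. Principal transcript length and adding Fabp3-ps1 reads were tried after the data were seen.

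The 10 genes, lists and tests were chosen with earlier results of these data known. Besides the 10 genes, the text names Fhl2, up to 4 genes per list and tissue with the smallest p, the genes between Fabp5 and Fabp4, and the most alike genes (highest Pearson r, mean log2 CPM above 3). Some genes that this rule takes are not reported here. Equal numbers in WT and KO hearts deviated together (r = 0.205 to 0.353 in 4 pairs), which met the limit set for pairing (every r over 0.1), but unequal numbers of the same set (1 and 2, or 3 and 4) did so as well (r = 0.135 to 0.430), and numbers of different sets did not (-0.414 to -0.126). Equal numbers may thus share no more than the set, and the block changed no heart call of the 10 genes. Between heart and gWAT, equal numbers had r = -0.0390 to 0.0943 in 3 WT pairs and -0.0292 to 0.246 in 3 KO pairs, which did not meet that limit. The main tissue test and the interaction treated heart and gWAT of the same number as separate samples. Nothing says that samples came from separate animals, so p-values measure the spread between these samples.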

Additional observations from a re-analysis of the deposited data

Results flagged for a closer look

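Of 20 sets of 4 heart libraries (10 genes in WT and in KO), 1 held a library far from the others by Dixon's test, and chance flags about 1 in 20. It was Angptl4 in WT heart, where number 4 had 5.09 CPM and numbers 1 to 3 had 10.02 to 10.8 CPM, so that the gap to the nearest library was 0.902 of the whole range. These levels rest on 60 to 139 reads per library.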

How the results depend on the processing

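Direction and call held for most of the values of the 10 genes: 126 of 140 alternative values in gWAT, 156 of 180 in heart and 157 of 160 between tissues. In gWAT and heart most of these belong to genes that were not called in the main fit. Fabp5 in gWAT, the only KO effect called among the 10 genes, passed in 9 of 14 alternatives. In gWAT the count of the 10 genes called, 1, became 0 with the replicate block, where Fabp5 had a log2 fold change of -0.92 and an adjusted p of 0.0564. The equal numbers did not deviate together there (r = -0.243 to 0.0277 in 3 pairs), and the labels do not say what they share. Over all genes, the 834 calls in gWAT became 1600 without a filter beyond 1 count, 1769 by DESeq2, 477 by limma-voom, 0 with the block (edgeR, with 2922 at an unadjusted p under 0.05) and 1725 in one fit of all libraries. The 1 call in heart became 3 without the filter, 2 by DESeq2 and 2 with the number set as a covariate. The 184 calls of the interaction became 533 without the filter, 669 by DESeq2 and 69 by limma-voom. The interaction of Fabp5 passed, making 1 of the 10 genes called, on library totals (adjusted p = 0.0453), without the filter (0.0059), by DESeq2 (0.00665) and with the block (0.0440). The cause was not tested.

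Leaving out 1 library gave 0 to 1 of the 10 genes called and 0 to 2908 of all genes in gWAT, 0 of 10 and 1 gene in heart, and 0 to 1 of 10 and 3 to 1315 genes in the interaction. These fits also turned the sign of uncalled values near 0, which in gWAT ran from -0.23 to 0.15 for Lpl, -0.12 to 0.43 for Gpihbp1, -0.12 to 0.044 for Cd36, -0.098 to 0.22 for Slc27a1, -0.16 to 0.26 for Acsl1 and in heart from -0.0495 to 0.0804 for Lpl, -0.25 to 0.30 for Angptl4, -0.15 to 0.043 for Cd36, -0.12 to 0.071 for Acsl1, -0.13 to 0.034 for Fabp3, -0.16 to 0.017 for Fabp4, -0.0700 to 0.15 for Fabp5. Other sign changes, none of them called, were Acsl1 in gWAT by limma-voom (0.024) and with the block (0.027), and in heart Cd36, Acsl1 and Fabp3 on library totals (0.0098, 0.032 and 0.0036) and Cd36, Acsl1, Fabp3 and Fabp4 with the atrial level as a covariate (0.11, 0.14, 0.078 and 0.077).

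Without division by length, Fabp3 held 59.5% and 59.9% of the binding protein reads in WT and KO heart, and Fabp4 98.5% and 99.3% in WT and KO gWAT. Per principal transcript the shares were 61.6%, 62.0%, 98.6% and 99.4%. With Fabp3-ps1 reads added, Fabp3 held 89.7% in WT heart. Depth limits mainly Fabp3 in gWAT (7 to 23 reads per library) and Angptl4 in heart (60 to 201 reads per library).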
